A study of Mus musculus with 2 samples.

Results

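The nuclear genes of oxidative phosphorylation were described in erythroblasts, nucleated cells on the way to becoming red blood cells. Members were chosen by symbol: nuclear protein-coding genes whose symbol begins with Ndufa, Ndufb, Ndufc, Ndufs, Ndufv, Uqcr, Cox4 to Cox8 or Atp5, and the genes Sdha, Sdhb, Sdhc, Sdhd and Cyc1. This gave 94 of 21461 nuclear protein-coding genes. They comprised 38 genes of complex I, 4 of complex II, 9 of complex III, 18 of complex IV and 17 of ATP synthase. The remaining 8, Ndufaf1 to Ndufaf8, share the Ndufa letters but encode assembly factors, which help to build complex I and are not part of the finished enzyme. They are kept apart below. The genes lie on 19 chromosomes, 3 of them on the X (Ndufa1, Ndufb11 and Cox7b). The symbol rule does not cover the 13 subunits encoded by mitochondrial DNA.

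The study has 1 group, erythroblasts of adult male C57BL/6J mice aged 5 to 6 weeks, with no treatment and no second cell type named in the labels. The isolation protocol named there is for bone marrow. Each of the 2 libraries was made with ScriptSeq from 100 ng of total RNA depleted of ribosomal RNA. They are labelled biological replicates 1 and 2, but both carry the same donor identifier, and nothing states that the cells came from separate animals. The spread between them may therefore be partly technical.

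Oxidative phosphorylation couples electron transport in the inner mitochondrial membrane to the making of ATP. Complex I and complex II pass electrons to coenzyme Q, complex III passes them on to cytochrome c, and complex IV passes them to oxygen. Complexes I, III and IV pump protons, and ATP synthase uses the returning protons to make ATP. Erythroblasts need mitochondria for heme and iron-sulfur clusters, and red cells lose them as they mature.

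The libraries held 37312624 and 22464724 estimated counts. Of these, 52361 and 30754 belonged to the members. Nuclear protein-coding genes held 11.3% and 6.89% of deposited TPM, a transcript abundance scaled by length and depth, in which small RNAs had a large part. Levels below are therefore given as coding-scaled TPM, in which the nuclear protein-coding genes of each library sum to 1000000. Their counts differed far beyond sampling noise (chi-square over degrees of freedom of 311 for 12757 genes), so they were not 1 library deposited in duplicate. The erythroid label was met by its markers: all 13 were detected, with a summed level of 405884 and 348383 coding-scaled TPM. All 14 neutrophil markers were detected too, with a summed level of 21096 and 20526, as were 8 of 9 macrophage markers (292 and 259). Of 6 megakaryocyte markers, 2 were detected, Itga2b (77.6 and 105) and Vwf (22 and 28.4), and the list summed to 121 and 144. Of the B cell and T cell markers, 0 of 5 in each list were detected, and Pax5, Cd3d and Cd8a had 0 counts. The part of other cells in the levels of these widely expressed genes was not tested, and in such bulk libraries fewer cells of a type and less RNA per cell cannot be told apart.

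Most subunits were detected, and the median member ranked in the upper part of the genes with any signal. Of the 94 members, 67 (71.3%) passed the detection limit used here (TPM as deposited, 1 or higher in each library), against 20.3% of nuclear protein-coding genes. With the limit of 1 set on coding-scaled TPM there were 85, against 43.9%. The median member had a coding-scaled TPM of 32.8 in replicate 1 and 43.5 in replicate 2 (38.2 ± 7.55, mean ± SD, n = 2). The median percentile was 82.7 among the 12895 nuclear protein-coding genes with a TPM above 0 in either library. Many of those genes were low, with a median of 7.02 and 6.96 coding-scaled TPM, and detected genes alone are compared further down. Together the members held 0.52% and 0.57% of nuclear coding TPM (0.544% ± 0.039, n = 2). Adult globins, which fill much of that scale, are counted in it.

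**Figure D1:**
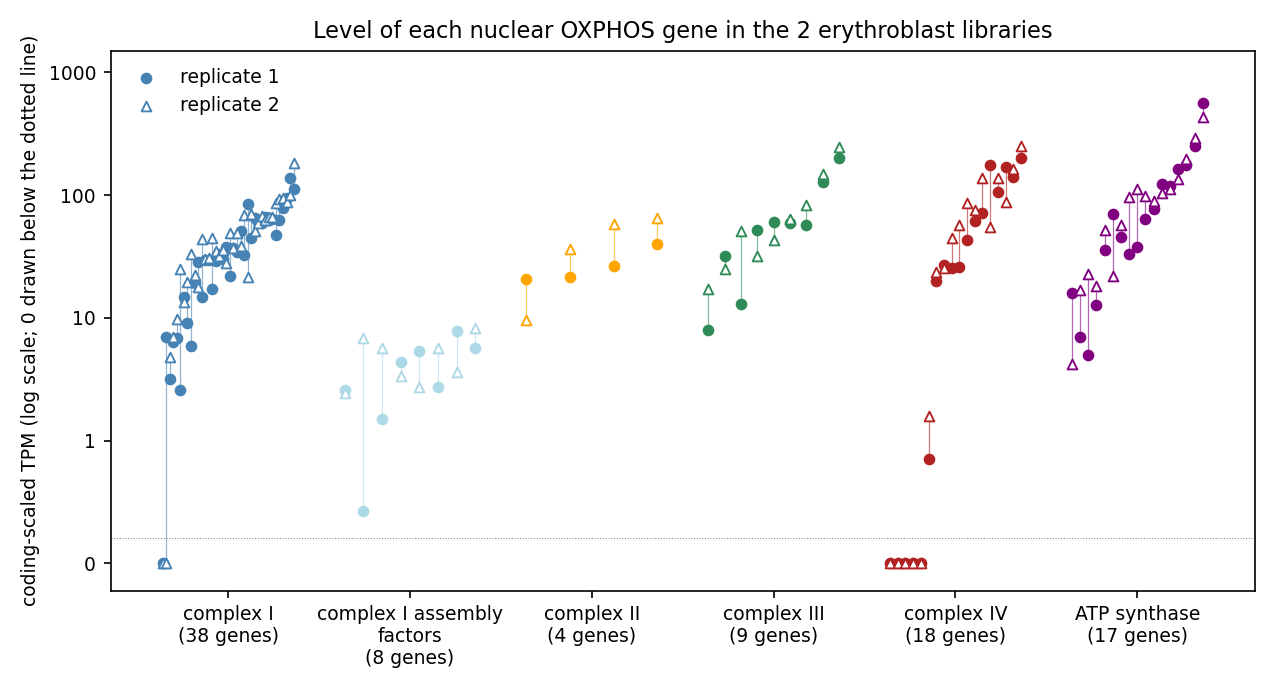
Coding-scaled TPM (log axis, values of 0 drawn below the dotted line) of each of the 94 genes in replicate 1 (filled circles) and replicate 2 (open triangles), grouped by complex and ordered by mean within it, with a line joining the libraries. The subunits of every complex reach above 50 coding-scaled TPM, the 8 assembly factors stay between 0.267 and 8.27, and 6 genes had 0 counts in both libraries.

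Complex I, the NADH dehydrogenase, had a median of 33.1 and 38 coding-scaled TPM (35.5 ± 3.50), with 30 of 38 genes detected. Its highest member was Ndufb9, an accessory subunit (GRCm38 chromosome 15, 58933756 to 58939488), at 112 and 184. Ndufa4, named as a complex I subunit but since placed with complex IV, followed at 139 and 99.4, and Ndufa3 at 95 and 87.6. A transcript annotated for nonsense-mediated decay, Ndufa3-204, held 59.0% and 45.1% of Ndufa3 TPM. On coding transcripts alone, compared after the data were seen, Ndufa3 stood at 38.9 and 48.0, below Ndufb10 at 71.2 and 59.0. The 7 core subunits, which carry the catalytic centres, had a median of 60.1 and 51.2, and the 31 others one of 32.8 and 37.3. These medians are of all transcripts, noncoding ones included. On coding transcripts alone the core median was not the higher in either library. Ndufs1 then stood at 30.2 and 43.6 and Ndufs3 at 15.8 and 11.3, while Ndufv2 stayed at 66.3 and 63.1. By all transcripts, the core split into levels: Ndufv1 (63.1 and 66.6), which binds NADH, Ndufv2 (66.3 and 63.1) and Ndufs1 (60.1 and 59.2) lay close together. Ndufs3 stood at 29.6 and 30.7. Ndufs7 and Ndufs8, both iron-sulfur subunits, were lowest at 14.9 and 13.5 and at 6.31 and 6.96, and were under the detection limit. These low values are from 104 and 63 counts for Ndufs7 and from 74 and 44 for Ndufs8.

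The lowest complex I genes were Ndufa4l2, Ndufb4 and Ndufa11. Ndufa4l2, a paralog of Ndufa4 known as a hypoxia response gene, had 0 counts in both libraries. Ndufb4 had 83.3 and 0 counts, and Ndufa11, a membrane subunit, stood at 3.20 and 4.79 coding-scaled TPM. Ndufb4 has a processed copy with identical coding bases, described further down. How far the level of Ndufb4 reflects its own messenger RNA was not tested.

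Complex II, succinate dehydrogenase, also belongs to the citric acid cycle. Sdha, the flavoprotein that oxidizes succinate, stood at 40.2 and 65.0 coding-scaled TPM, and Sdhb, the iron-sulfur subunit, at 21.7 and 36.3. The membrane anchors differed from each other: Sdhd stood at 26.3 and 58.3 and Sdhc at 20.9 and 9.57. Sdha, Sdhb and Sdhd were higher in replicate 2 on this scale, and Sdhc was lower. By counts Sdhc did not share that difference, with 414 and 225 and a log2 ratio of 0.00 (−0.24 to 0.24), and its transcript shares are given below. The median of the 4 genes was 24.0 and 47.3 (35.6 ± 16.5).

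Complex III, the cytochrome bc1 complex, had 8 of 9 genes detected and a median of 57.3 and 51.2 coding-scaled TPM (54.3 ± 4.32). Uqcrh, the hinge protein (chromosome 4, 116066965 to 116075071), was highest at 202 and 247, followed by Uqcrb at 129 and 149 and the core protein gene Uqcrc1 at 57.3 and 83.5. The catalytic subunits were lower than these: Uqcrfs1, the Rieske iron-sulfur protein, stood at 52.0 and 32.1, and Cyc1, cytochrome c1, at 32.1 and 25.2. The lowest were Cyc1, Uqcr10 (12.9 and 51.2) and Uqcrq (8.00 and 17.3), of which Uqcrq was under the detection limit. By counts (replicate 2 over replicate 1), Uqcrfs1 had a log2 ratio of −0.74 (−0.94 to −0.56) and Cyc1 one of −0.39 (−0.63 to −0.15), with intervals for counting error below 0. Uqcrh (0.30, 0.17 to 0.44) and Uqcrb (0.27, 0.09 to 0.44) had intervals above 0.

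Complex IV, cytochrome c oxidase, had 12 of 18 genes detected and a median of 26.4 and 49.7 coding-scaled TPM (38 ± 16.5). Cox6c (chromosome 15, 35925886 to 35938246) was highest at 199 and 251, followed by Cox6b1 at 140 and 163 and Cox5b at 168 and 87.3. Many complex IV subunits exist as a widespread form and a form restricted to heart and skeletal muscle, lung, testis or brown fat. Here no form named below as restricted led its family, and in Cox7a the leading gene was Cox7a2l. Cox4i1 held 100% of its family's TPM, with 900 and 626 counts, while Cox4i2, the lung form, had 0. Cox8a held 100% over Cox8b and Cox8c, and Cox7b held 100% over Cox7b2. Of the Cox6a pair, Cox6a1 held 97.3% ± 0.0317, and Cox6a2, the heart and muscle form, had 5 and 6 counts. Of the Cox7a genes, Cox7a2l held 72.2% ± 3.69 and Cox7a2 27.8% ± 3.69, while Cox7a1, the muscle form, had 0 counts. With 0 counts, a floor of 3 counts allows up to 0.0804 and 0.134 CPM in replicates 1 and 2, for counting error only. In all, 6 members had 0 counts in both libraries: Cox4i2, Cox7a1, Cox7b2, Cox8b, Cox8c and Ndufa4l2. This compares with 39% of nuclear protein-coding genes.

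Cox6b2, known as a testis form, was the exception among the restricted forms. It stood at 19.9 and 23.5 coding-scaled TPM with 104 and 53 counts, and was detected. It held 12.5% ± 0.105 of the Cox6b family TPM, against 87.5% ± 0.105 for Cox6b1 at 670 and 446 counts. By counts the Cox6b2 share was less even, at 13.4% and 10.6%. Its transcripts also differed between the libraries: Cox6b2-201 had 77.7 and 0 counts and Cox6b2-204 had 0 and 26. Transcripts with a retained intron held 12.1% and 40.4% of Cox6b2 TPM.

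**Figure D2:**
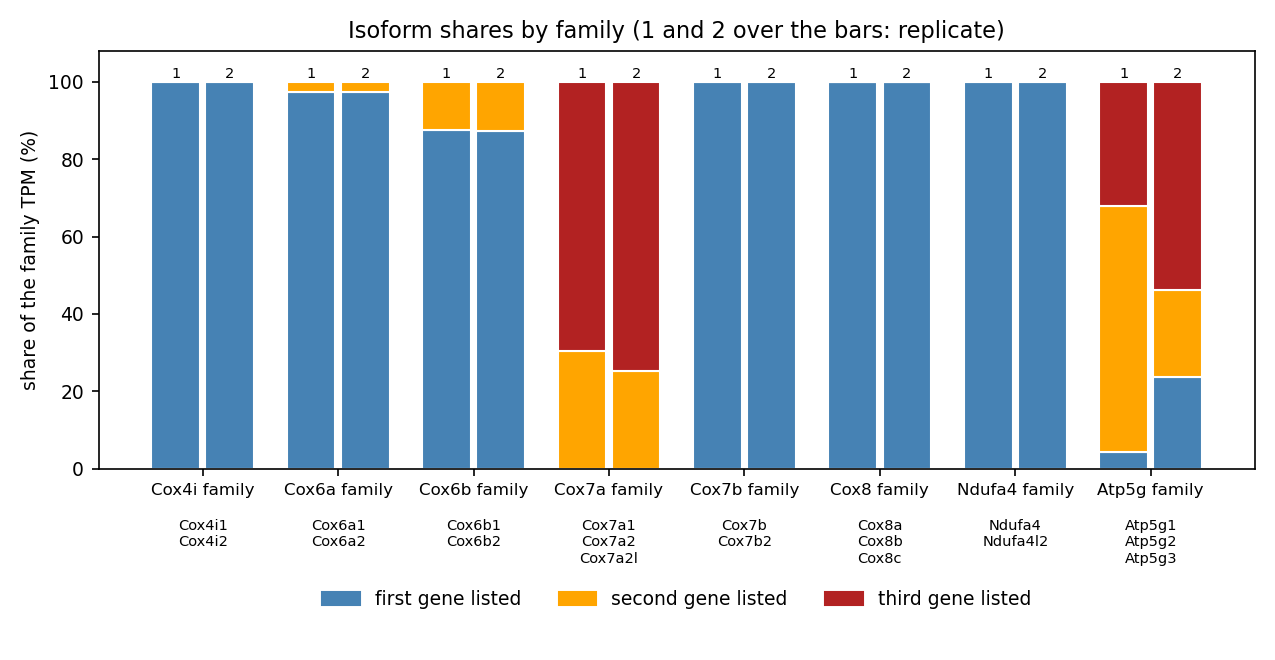
Share of the family TPM (%) held by each isoform gene in 8 families, with 1 stacked bar per replicate and colours in the order in which the genes are listed under each family. The leading gene is the same in both libraries in every family but Atp5g, where Atp5g2 leads in replicate 1 and Atp5g3 in replicate 2.

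ATP synthase had the highest median by all transcripts, at 63.5 and 97.2 coding-scaled TPM (80.4 ± 23.8), with 14 of 17 genes detected. Atp5b, the catalytic beta subunit (chromosome 10, 128083273 to 128090391), was the highest of all 94 members at 566 and 432. Atp5h, in the peripheral stalk that holds the head still, followed at 253 and 293. On coding transcripts alone, a comparison added after the data were seen, this order turned in both libraries, with Atp5h at 250.04 and 281 and Atp5b at 213 and 266. By all transcripts, the next ATP synthase gene was Atp5f1, also of the stalk, at 177 and 198. Atp5a1, the alpha subunit that alternates with beta in the head, stood at 163 and 135. The median was 124 and 112 for the 5 genes of the F1 head and 127 and 155 for the 4 of the peripheral stalk. It was 35.6 and 22.9 for the 3 genes of the c ring and 39.3 and 77.4 for the 4 other membrane subunits. These medians are of all transcripts. On coding transcripts alone the stalk median was below the head median in both libraries. Atp5f1 then stood at 45.4 and 11.2, Atp5o at 77.5 and 47.4 and Atp5j at 16.2 and 37.0. The median of all ATP synthase genes was then below that of complex III in both libraries. Within the head, Atp5d, the delta subunit, stood apart at 12.8 and 18.3. The lowest members were Atp5g1 (4.98 and 22.9), Atp5l (7.02 and 16.8) and Atp5s (16.0 and 4.21), all under the detection limit. A processed copy of Atp5l, identical over the coding bases compared, was given 92.0% and 88.6% of their summed counts. With its similar pseudogenes added, Atp5l stood at 120 and 190.4. How far the low rank reflects Atp5l messenger RNA was not tested.

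The c ring turns as protons pass, and 3 genes encode the same mature c subunit. Their shares differed between the libraries. In replicate 1, Atp5g2 held 63.5% of the family TPM, Atp5g3 32.0% and Atp5g1 4.47%. In replicate 2, Atp5g3 led with 53.8%, followed by Atp5g1 with 23.6% and Atp5g2 with 22.6%. The order of the 3 genes is thus not settled by these libraries, and Atp5g2 has an identical pseudogene that took reads as well.

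The complex I assembly factors were far lower than the subunits. Their median was 3.55 and 4.64 coding-scaled TPM (4.10 ± 0.769), and 0 of 8 passed the detection limit, while 7 of 8 had a coding-scaled TPM of 1 or higher in each library. The highest were Ndufaf2 (5.69 and 8.27), Ndufaf1 (7.82 and 3.63) and Ndufaf7 (2.75 and 5.66). The lowest were Ndufaf5 (2.58 and 2.47), Ndufaf6 (0.267 and 6.82) and Ndufaf8 (1.51 and 5.66). Ndufaf6 rests on 2 and 32 counts and Ndufaf8 on 5 and 12. The lowest median of any complex in either library, 24.0 for complex II in replicate 1, was above the highest assembly factor.

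Across the complexes, by all transcripts, ATP synthase had the highest median and complex III the second highest in both libraries. Complexes I, II and IV had different places: complex I came after complex III in replicate 1 and last in replicate 2. Neighbouring medians in this order overlapped within their SD, and with 2 libraries no test of the order was made. Among detected genes, the highest mean level was 10.4 times the lowest in complex I, 1.81 times in complex II, 7.82 times in complex III, 10.4 times in complex IV and 32.2 times in ATP synthase. The middle 50% of detected members lay between 34.0 and 89.1 coding-scaled TPM, a ratio of 2.62. For all detected nuclear protein-coding genes it lay between 23.5 and 93.5, a ratio of 3.98, so the range of the members fell inside it. Over the 67 detected members, the rank correlation of level with GC content of the leading coding transcript was −0.12 and −0.06 in replicates 1 and 2. With its length it was −0.05 and −0.07. Genes are not independent replicates, and these values are a description.

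The mitochondrial partners were counted in far greater number. The 13 mitochondrial messenger RNAs had 94.2 and 49.5 times the counts of the 94 nuclear members. The ratio was 575 and 292 for complex IV, 19.5 and 10.7 for complex I, 10.5 and 8.96 for complex III, and 5.02 and 4.87 for ATP synthase. It was nearly equal in both libraries for ATP synthase and differed most for complexes I and IV. The ratio over all members was set mainly by the 3 mitochondrial genes of complex IV. These held 4494699 and 1345145 counts, where all 13 mitochondrial genes had 4930437 and 1522281. Counts are not scaled by length here, and the mitochondrial and nuclear sums cover different numbers of genes.

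Ratios of replicate 2 over replicate 1 were taken from TMM-scaled counts for the 67 members whose mean count was 100 or higher, each with an exact 95% Clopper-Pearson interval that covers counting error only. The other 27 were too thinly counted. The median log2 ratio was 0.22, against −0.04 for the 7658 nuclear protein-coding genes compared. Of the 67 members, 12 (17.9%) were at least 2-fold apart, against 8.54% of nuclear protein-coding genes. Among them 8 were higher in replicate 2 (background 2.93%) and 4 in replicate 1 (background 5.62%). All 12 were among the 59 members with mean counts of 100 to 1000, where the background was 11.5%, and 0 of the 8 members above 1000 were 2-fold apart. An interval lay wholly above 0 for 34 members (background 31.5%) and wholly below 0 for 16 (background 37.9%). These ratios compare 2 libraries of 1 group, so they measure the spread between replicates and not a condition.

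Toward replicate 2, Atp5k, the membrane subunit e, had the highest log2 ratio, 1.75 (1.38 to 2.14), from 91 and 167 counts. Atp5j, a stalk subunit, had 262 and 401 counts and one of 1.49 (1.26 to 1.72). Cox7c followed at 1.46 (1.17 to 1.75) from 168 and 251 counts, and Ndufa2 at 1.44 (1.06 to 1.82) from 99 and 146. The others were Ndufs6 (125 and 157 counts, 1.21), Cox6a1 (151 and 188, 1.19), Sdhd (438 and 513, 1.11) and Ndufa12 (188 and 206, 1.01). On the coding-scaled TPM scale all 8 were higher in replicate 2 as well, with Atp5k at 32.9 and 97.2 and Cox6a1 at 26 and 57.4. By the ratio of deposited TPM, which moves the median of all coding genes to −0.68, the same 8 had log2 ratios of 0.30 to 0.86.

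Toward replicate 1, Atp5s, a gene related to the coupling factor B of ATP synthase, had 315 and 43 counts and a log2 ratio of −1.99 (−2.49 to −1.53). Atp5g2 had 582 and 95.3 counts and −1.74 (−2.07 to −1.42), and Ndufc2, a membrane subunit, 403 and 69 counts and −1.67 (−2.06 to −1.30). Cox8a had 958 and 166 counts and −1.65 (−1.90 to −1.41). Cox8a thus stood at 177 coding-scaled TPM in replicate 1, the second highest complex IV gene there, and at 54.5 in replicate 2. By contrast the most counted members were close between libraries, with log2 ratios of 0.09 (0.04 to 0.15) for Atp5b, −0.26 (−0.34 to −0.19) for Atp5a1 and −0.03 (−0.12 to 0.05) for Atp5f1.

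Some thinly counted members were further apart. Ndufc1, a small membrane subunit, had 13 and 147 counts, Ndufb6 had 42 and 131, and Uqcr10 had 48 and 112. These lie under the mean count of 100 and are not among the 12. The rank correlation of coding-scaled TPM between the libraries was 0.853 over the 88 members with a count, against 0.924 over the 12895 coding genes with signal.

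Many members are short, and the short ones held most of the 2-fold differences. Of 24 members with a leading coding transcript under 600 bases, 6 were at least 2-fold higher in replicate 2 and 2 in replicate 1, or 33.3%, against 19.3% of nuclear protein-coding genes of that length. Among longer members, 1 was higher and 1 lower in replicate 2 of 19 with 600 to 1000 bases, 1 and 1 of 18 with 1000 to 2000, and 0 of 6 with 2000 or more. The labels give size ranges of 200 to 764 for replicate 1 and 138 to 1000 for replicate 2, with no unit. Transcript length less effective length, which follows the mean fragment length, was 190 and 152 bases. The part of fragment size in these ratios was not tested.

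**Figure D3:**
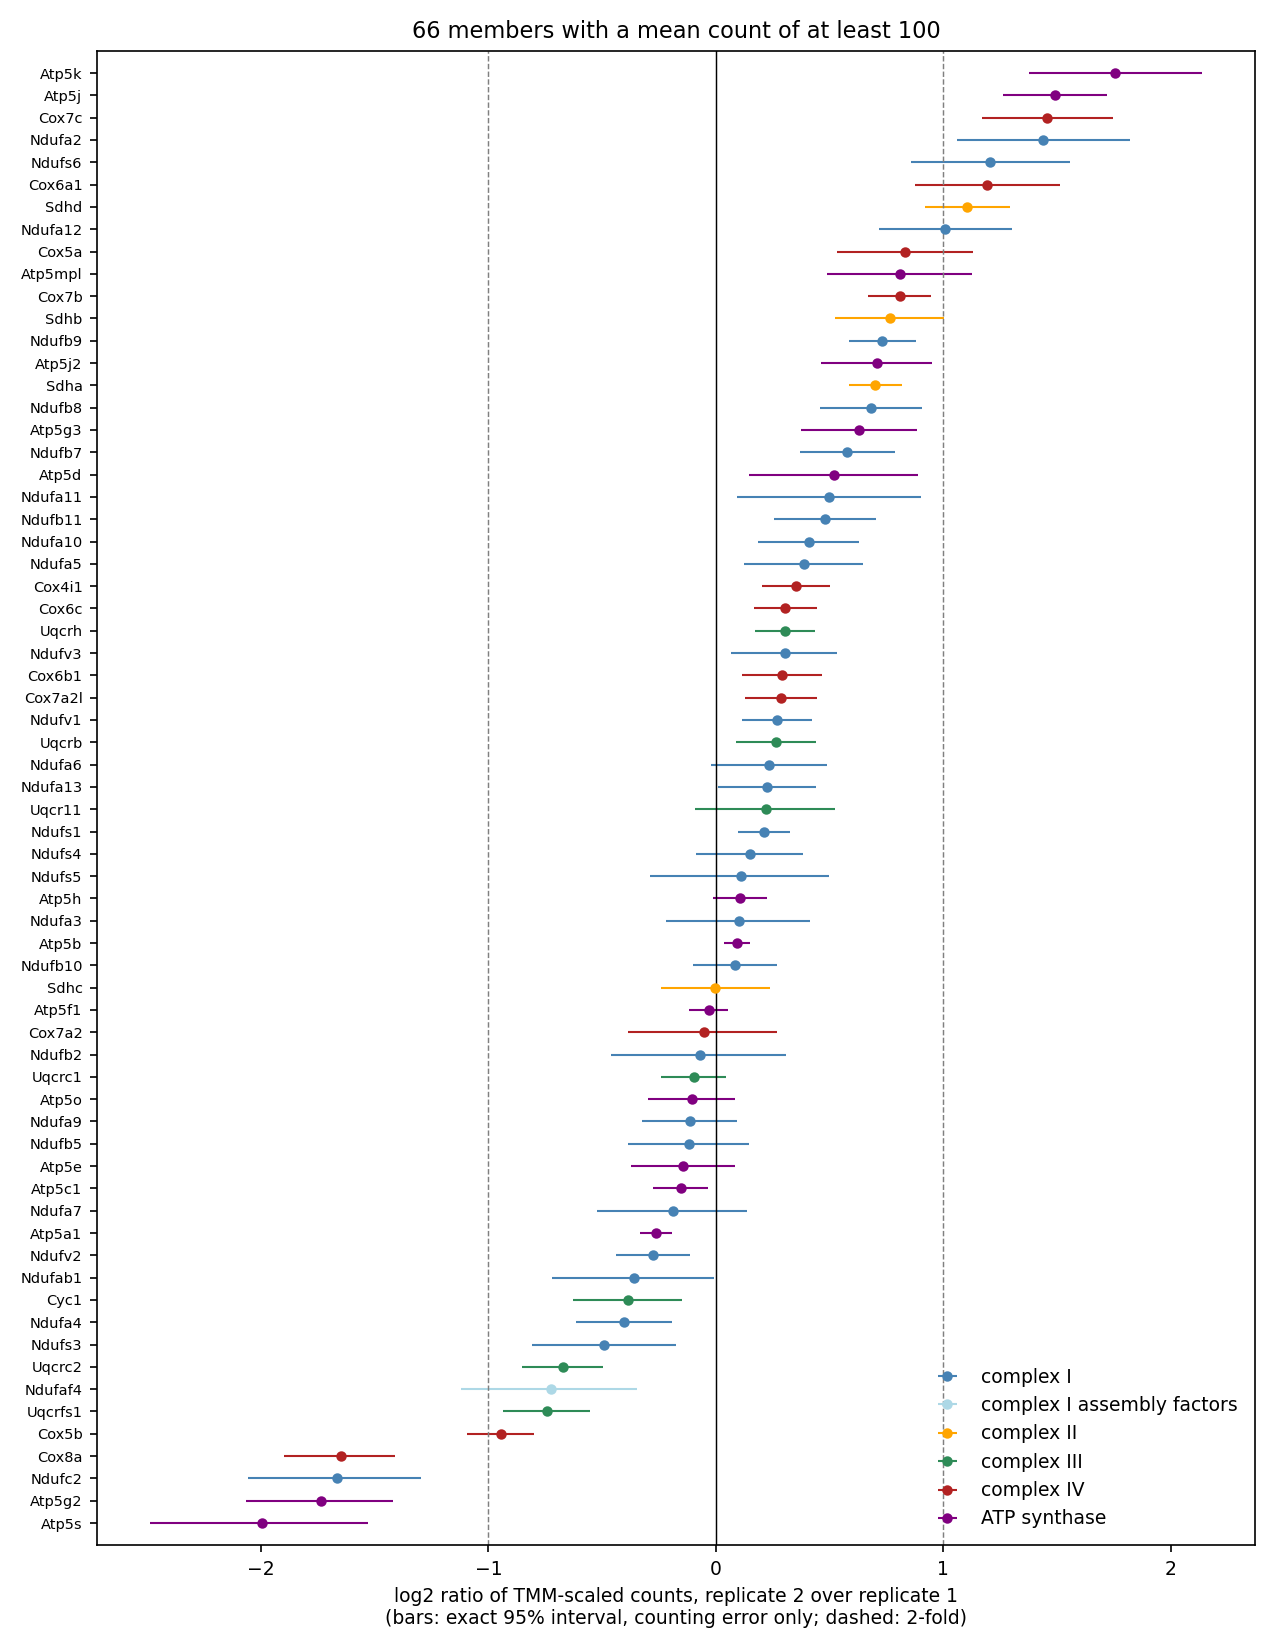
Log2 ratio of TMM-scaled counts, replicate 2 over replicate 1, for 66 of the 67 members whose mean count was 100 or higher, coloured by complex, with exact 95% intervals for counting error and dashed lines at 2-fold. Points lie from −1.99 (Atp5s) to 1.75 (Atp5k), with 8 at or beyond the upper line and 4 beyond the lower.

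Several members have processed pseudogenes, messenger RNA copies pasted back into the genome, whose sequence is the same or nearly so. Of the 94 members, 30 were the best match of 61 pseudogenes in the files, with at least 90% identity over at least 150 bases. A match of that length need not be a copy of the gene. Those of Ndufaf7 covered at most 183 bases, where its leading coding transcript has 2303. Of the 61, 36 had 0 counts and 9 had at least 10 counts in a library. The stretches below are shown because the reads given to a member and to its copy depend on these letters. All are from the coding sequence, 5′ to 3′, on GRCm38, and a base that differs is in capitals.

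Atp5l, a membrane subunit (chr9:44912557-44920742, minus strand), and its copy Gm10221 (chr5:24581554-24581862, minus strand) had 0 differences over the 309 bases compared. Coding bases 1 to 90 of each were as follows.
Atp5l: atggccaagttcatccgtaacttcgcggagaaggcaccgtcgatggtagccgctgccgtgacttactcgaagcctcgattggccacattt
Gm10221: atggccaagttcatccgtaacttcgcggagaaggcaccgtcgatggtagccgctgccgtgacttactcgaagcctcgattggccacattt
The gene was given 34.3 and 46.8 counts and the copy 397 and 364. Most counts of the pair were thus assigned to the copy in both libraries. Of the 511 bases of the Atp5l transcript, 199 lie outside the coding sequence and outside this comparison. The deposited TPM was 0.79 and 1.16 for Atp5l and 12.6 and 12 for the copy.

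Ndufb4 (chr16:37647170-37654453, minus strand) and its copy Ndufb4c (chr15:73809507-73809896, minus strand) had 0 differences over all 390 coding bases. Coding bases 1 to 90 were as follows.
Ndufb4: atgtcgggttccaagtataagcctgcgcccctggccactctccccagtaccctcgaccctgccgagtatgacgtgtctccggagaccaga
Ndufb4c: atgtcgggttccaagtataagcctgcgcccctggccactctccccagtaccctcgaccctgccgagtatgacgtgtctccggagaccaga
Ndufb4 was given 83.3 and 0 counts and Ndufb4c 190 and 142. With both summed, the log2 ratio was −0.06, against 83.3 and 0 counts for the gene alone. Of the 971 bases of the Ndufb4 transcript, 581 lie outside the coding sequence and outside this comparison.

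Ndufa12, an accessory subunit of complex I, and its copy Gm15920 (chr5:130188395-130188796, plus strand) had 2 differences over 402 bases, A147G and T426C, counted from the first base of the start codon with the gene's base first. Coding bases 58 to 147 hold the first of them.
Ndufa12: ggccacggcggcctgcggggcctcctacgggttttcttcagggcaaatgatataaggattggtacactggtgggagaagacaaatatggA
Gm15920: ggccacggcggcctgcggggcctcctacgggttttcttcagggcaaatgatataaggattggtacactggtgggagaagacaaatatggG
Ndufa12 was given 188 and 206 counts and Gm15920 142 and 32.9. The log2 ratio of the gene alone was 1.01 and that of the sum 0.41, under 2-fold.

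Other pairs behaved in different ways. Atp5g2 and Gm10175 had 0 differences over 441 coding bases, and the gene was given 582 and 95.3 counts against 48.2 and 83.7 for the copy. The log2 ratio of −1.74 became −0.94 for the sum. Atp5h and Gm10250 differed at C69T and G309A over 482 bases and by 1 gap, and the gene kept 1598 and 936 counts against 131 and 47.0. Cox7c and Gm12338 were identical over 192 coding bases, with 168 and 251 counts for the gene and 21.4 and 38.1 for the copy. The sum gave 1.49 where Cox7c alone gave 1.46. With all similar pseudogenes added to their members, 10 members were at least 2-fold apart in place of 12, as Atp5g2 and Ndufa12 were no longer among them. The deposited posterior standard deviation marked 0 members as sharing reads, at a limit of 3 times the square root of the count. That limit left even Atp5l unmarked, at 1.30 and 1.46 times, so it cannot show that reads were not shared.

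**Figure D4:**
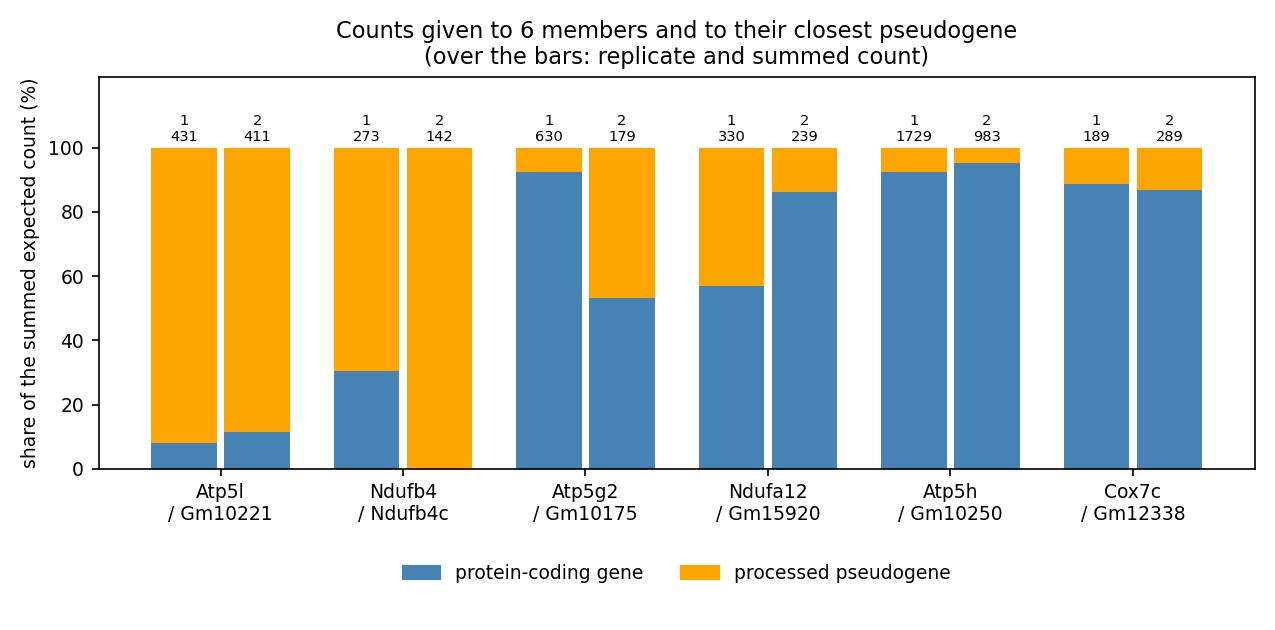
Share of the summed expected count (%) given to the protein-coding gene and to its pseudogene in 6 pairs, with 1 bar per replicate and the replicate and the summed count above it. Most of the sum goes to the pseudogene in Atp5l and Ndufb4 in both libraries, and the division differs between libraries in Ndufb4, Atp5g2 and Ndufa12.

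Transcripts annotated as coding held 82.4% and 83.3% of member TPM, near the 83.7% and 83.0% over all nuclear protein-coding genes. Those with a retained intron held 4.41% and 5.79%, against 10.8% and 10.4% over all nuclear protein-coding genes. The pooled share of transcripts annotated for nonsense-mediated decay was higher in members (3.22% and 4.10%, against 1.34% and 1.55%). Most of it lay in Atp5f1-203 (12.4 and 11.43 TPM) and Ndufa3-204 (6.31 and 2.73). The pooled share of noncoding processed transcripts was also higher (9.55% and 6.49%, against 3.48% and 4.32%). Most of that in replicate 1 lay in Atp5b-206 (24.12 and 8.25 TPM) and Atp5b-207 (14.48 and 2.62). These sums are thus set by a few genes and are not a trait of the members in general. Transcripts with a retained intron made up at least 10% in both libraries in 7 of 67 detected members (10.4%), against 26.1% of detected nuclear protein-coding genes. These were Atp5f1, Atp5j, Ndufs1, Ndufa7, Ndufab1, Sdha and Cox6b2. In Ndufs1, the largest core subunit of complex I, such transcripts held 49.7% and 26.3%. In Ndufab1, the mitochondrial acyl carrier protein, the share was 39.6% and 39.3%, and in Sdha 24.3% and 18%. For Sdha these are short transcripts, and by counts their share was 2.77% and 2.43%. In Atp5j, 1 transcript with a retained intron, Atp5j-208, held 37.2% and 64.3%.

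In 4 of 67 detected members (background 12.7%) coding transcripts held under 50% in both libraries, among them Atp5f1, Atp5j and Ndufa5. In Atp5f1 a transcript annotated for nonsense-mediated decay, Atp5f1-203, led with 62.2% and 83.7%, and coding transcripts held 25.6% and 5.64%. In Ndufa5 a noncoding transcript, Ndufa5-204, held 66.2% and 98.1%. Atp5b shows how far a short transcript moves a level in TPM. Its coding transcript, Atp5b-201, had 5589 of 6947 counts and 3637 of 4034, but held 37.6% and 61.5% of Atp5b TPM. The noncoding Atp5b-206, of 478 bases, held 37.8% and 27.7% from 939 and 302 counts. The level of Atp5b in TPM therefore includes a large part from short noncoding transcripts.

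The leading transcript was the same in both libraries in 36 of the 49 detected members with several transcripts (73.5%), against 67.4% of such nuclear protein-coding genes. Ndufa10 was among those where it was not: its coding transcript Ndufa10-201 held 95.9% in replicate 1 and 16.8% in replicate 2. Sdhc was under the detection limit, and its shorter coding transcript Sdhc-201 held 71.2% and 0%, while the longer Sdhc-202 took the rest. A count on a longer transcript gives less TPM.

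Exons of 32 members overlapped those of another gene, on the opposite strand in 29 and on the same strand in 5. Atp5j shares 397 bases with Gabpa, which encodes a factor known to bind promoters of this group, and Cox6c shares 250 bases with Vps13b, which had 17552 and 8971 counts. Whether strand was used in counting is not given in the sources used here, so reads in these stretches cannot be assigned with certainty.

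The promoters of the members were searched for letters of factors known to act on these genes. RefSeq windows from 250 bases before to 50 after the annotated start (GRCm38.p6) were matched for 74 of the 94 genes, giving 79 windows, and were set beside 21263 windows of protein-coding genes. NRF1 (GCGCA, any base, then GCGC) was found in 25.3% of member windows, against 6.38%. The ETS letters CCGGAAG, known to be bound by Gabpa in the NRF2 factor, were in 22.8% against 11.6%, and the YY1 letters AANATGGCG in 13.9% against 3.12%. At least 1 of these 3 was in 53.2% against 18.8%. The ERR letters TCAAGGTCA were in 2.53% against 0.334%, or 2 genes, Atp5g3 and Sdhd. The erythroid GATA letters AGATAA were in 7.59% against 9.65% and the TATA box letters TATAAA in 10.1% against 12.6%. Both strands were searched, and no motif contains another. A match is a run of letters and was not tested for binding.

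**Figure D5:**
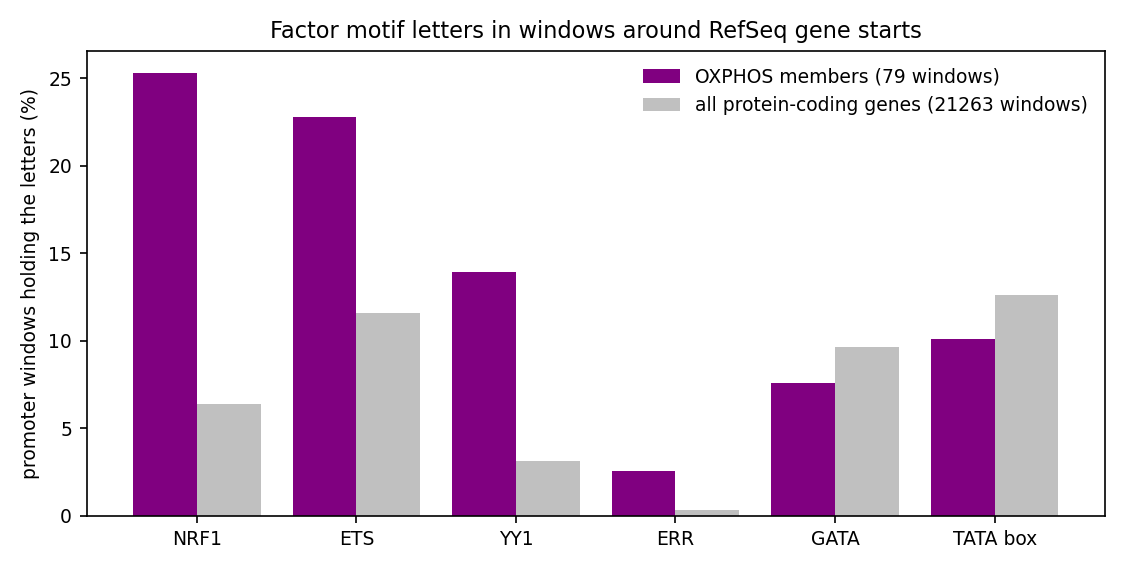
Share of promoter windows (%) that hold the letters of each factor on either strand, for the 79 windows of the members and the 21263 windows of protein-coding genes. NRF1, ETS, YY1 and ERR letters are in a larger share of the member windows, and GATA and TATA box letters in a smaller one.

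For NRF1, ETS and YY1, the median levels of genes with and without the letters lay close together in replicate 1. Of 74 genes, the 19 with NRF1 letters had a median of 32.9 and 57.4 coding-scaled TPM, and the 55 without 32.8 and 36.3. For the 18 with ETS letters it was 31.2 and 57.9, against 33.1 and 36.5 for the other 56. For the 11 with YY1 letters it was 33.3 and 38.7, against 32.8 and 43.9. The difference for NRF1 and ETS was thus seen in replicate 2 alone. The 7 genes with TATA box letters had a lower median in both libraries, 14.9 and 16.8 against 32.9 and 44.8 for the other 67. Among the 7 are Cox7b2 and Cox8b, with 0 counts, and Atp5l, whose copy was given most of their summed counts. The others had mean levels of 91.3 (Ndufa3), 77.9 (Ndufb7), 44.8 (Ndufa7) and 14.2 (Ndufs7), so the lower median rests on which genes are counted. For the 6 with GATA letters it was 34.2 and 37.6, against 31.4 and 41.3. These differences were not tested.

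The promoters below are shown because they hold these letters in different ways: that of Atp5b, the highest member with an entry, that of Atp5h, with NRF1 and ETS letters, and that of Sdha, which has the most NRF1 matches. Each runs from 250 bases before the start to 30 after it, on the gene's strand, with the matches in capitals.
Atp5b (GRCm38.p6, chr10:128083057-128083336, plus strand): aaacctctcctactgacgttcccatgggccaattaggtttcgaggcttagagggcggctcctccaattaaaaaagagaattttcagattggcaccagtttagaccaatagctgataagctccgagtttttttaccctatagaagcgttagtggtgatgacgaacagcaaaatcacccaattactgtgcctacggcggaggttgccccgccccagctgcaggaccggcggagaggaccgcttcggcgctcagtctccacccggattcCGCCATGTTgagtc
Atp5h (GRCm38.p6, chr11:115419890-115420169, minus strand): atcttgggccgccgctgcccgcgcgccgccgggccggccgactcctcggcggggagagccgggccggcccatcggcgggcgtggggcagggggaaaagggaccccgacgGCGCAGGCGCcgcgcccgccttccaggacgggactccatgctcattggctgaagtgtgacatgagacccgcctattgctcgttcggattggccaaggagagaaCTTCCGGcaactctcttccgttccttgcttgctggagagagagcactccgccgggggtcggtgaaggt
Sdha (GRCm38.p6, chr13:74350211-74350490, minus strand): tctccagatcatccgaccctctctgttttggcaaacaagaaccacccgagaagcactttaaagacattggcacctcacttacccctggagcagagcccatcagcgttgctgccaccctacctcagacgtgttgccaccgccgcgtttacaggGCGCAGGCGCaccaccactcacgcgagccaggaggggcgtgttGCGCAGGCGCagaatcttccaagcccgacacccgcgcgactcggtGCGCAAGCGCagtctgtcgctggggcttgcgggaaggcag
Atp5b has 1 YY1 match, on the opposite strand and after the start. Atp5h has 1 NRF1 match and 1 ETS match, and Sdha has 3 NRF1 matches.

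Genes that serve the complexes without belonging to them were described from lists of known factors. All 14 citric acid cycle genes outside complex II were detected, with a median of 31.4 and 30.5 coding-scaled TPM. Ogdh, of the oxoglutarate dehydrogenase complex, was highest at 99.6 and 93, followed by Idh3g (66.6 and 65.8) and Dlst (61.9 and 69.3), and Idh3a was lowest at 10.3 and 16.0. Assembly factors were lower, like the Ndufaf genes: 0 of 8 for complex I outside the symbol rule, 1 of 4 for complex II, 1 of 6 for complex III and 7 of 20 for complex IV were detected, with medians of 2.75 to 5.69 in replicate 1 and 5.00 to 7.25 in replicate 2. Foxred1 (7.73 and 11.2), Timmdc1 (4.09 and 13.1) and Tmem126b (3.82 and 7.11) led the complex I list, in which Nubpl had 0 counts. Sdhaf2 (13.5 and 15.2), which helps to attach the flavin to Sdha, led the complex II list, followed by Sdhaf4 (8.71 and 7.11) and Sdhaf1 (0.80 and 2.90), and Sdhaf3 was lowest with 0 and 23 counts. Uqcc2 (26.9 and 20.7), Uqcc3 (12.4 and 12.8) and Uqcc1 (4.44 and 8.56) led the complex III list, and Bcs1l was lowest with 10 and 26 counts. Cox17, a copper chaperone for complex IV, stood apart at 98.1 and 333, above Cox20 (57.1 and 71.5) and Cox11 (35.2 and 48), and Coa7 was lowest at 0.533 and 0.725. From 597 and 811 counts, Cox17 had a log2 ratio of 1.32 (1.17 to 1.48).

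Atpif1, the inhibitor that binds ATP synthase, stood above every member. Its level was 2294 and 2958 coding-scaled TPM (2626 ± 470, n = 2), from 12496 and 8942 counts, at percentile 99.9. Atp5b, the highest member, stood at 566 and 432. Atpif1 is known to be needed for heme synthesis in erythroblasts. The other genes of its list, Atpaf2 (16.1 and 11.7), Tmem70 (2.67 and 7.25) and Atpaf1 (2.31 and 1.45), were under the detection limit. Of 16 genes for electron carriers and coenzyme Q, 5 were detected, led by Etfb (59.7 and 82.1), Coq9 (44.0 and 28.6) and Etfa (14.8 and 34.1). Cycs, cytochrome c, stood at 15.5 and 21.5, and Cyct, its testis form, had 0 counts.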

How the data were processed

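Bulk total RNA sequencing of 2 erythroblast libraries was analysed. Per the file headers, the authors deposited expected counts, TPM and posterior standard deviations (used as a score) per gene and transcript, and isoform percent values per transcript. Per the labels the assembly is mm10. The sources used here name no aligner or quantifier. Of the Ensembl gene identifiers, 42462 (98.0%) matched GENCODE M21 on GRCm38.

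Coding-scaled TPM, shares and medians were computed from the deposited TPM in Python 3.11.15 with pandas 2.3.3. The percentile is the rank among coding genes with signal. Expected counts were rounded and scaled with TMM (edgeR 4.0.16). Log2 ratios were taken at a mean count of at least 100, with exact Clopper-Pearson intervals. No p-value was computed, since the study has 1 group and a ratio has 1 library on each side. The ratio step was tested on simulated counts. Pseudogenes were found with blastn 2.17.0. At a depth of 37312624 and 22464724 counts, genes at 0 were given a floor of 3 counts. No per-sample column was left unmapped.

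Named genes are the 3 highest and the 3 lowest of each complex, all isoform family members and all members at least 2-fold apart, and in each further list the 3 highest and the lowest. Other genes were chosen after their values were seen. Members, lists, motifs and limits were chosen with earlier results of these data known. Alternatives were posterior mean TPM, other scalings and count minimums, other detection limits, members left out, and leaving out each library. The addition of pseudogene values and the levels from coding transcripts alone were chosen after seeing the data. Values of 1 member enter the counts and medians but are not reported here.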

Additional observations from a re-analysis of the deposited data

How the results depend on the processing

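Of 96 alternative values for 22 results, 77 kept their direction and stayed within a limit, 18 moved further and 1 reversed. The limit was the SD for levels and shares and 1.5 times for counts. For the median log2 ratio it was 0.229, taken from the counting intervals. Of the 77, 9 equal the reported value by construction, since leaving out members marked as sharing reads removed 0 members. The 77 also hold the values with 1 library left out, which for levels and shares could not pass the limit. The tally is therefore no measure of how stable the results are. The reversed one is the median log2 ratio, which was −0.50 by the ratio of deposited TPM, where the median of all coding genes was −0.68 and 0 members were at least 2-fold higher in replicate 2 and 15 in replicate 1. Relative to all coding genes the members' median was 0.26 with TMM and 0.18 by TPM. By library size alone 6 were higher in replicate 2 and 5 in replicate 1, where Ndufa12 and Sdhd were lost and Cox5b was gained. With a mean count of at least 10, 21 members were at least 2-fold apart, and 23 with no filter, since thinly counted members then enter. With adult globins left out of the scale, which raises every level, the median was 59.2 for all members, 55.3 for complex I, 54.8 for complex II, 84.9 for complex III, 58.5 for complex IV and 124 for ATP synthase, and the share of coding TPM 0.847%. With pseudogenes added that share was 0.584%. By expected counts, Cox6a1 held 96.9% and Cox6a2 3.15%, Cox6b1 88.0% and Cox6b2 12.0%, and Cox7a2l 80.1% and Cox7a2 19.9%. Counts are not scaled by transcript length, as TPM is, and the Cox7a2l transcript has 1078 bases and that of Cox7a2 754. Cox6a2 rests on 5 and 6 counts.

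Leaving out 1 of 2 libraries always gives a value within 1 SD of the mean by construction. These values span 32.8 to 43.5 for the median member, 0.516% to 0.572% for the share of coding TPM and 70 to 72 for members detected. For Atp5g2 they are 22.6% and 63.5%. No paired analysis was possible because there is 1 group. Depth limits the 27 members under a mean count of 100.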

Other observations

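Of 10 genes that move nucleotides and anions across the mitochondrial membranes, 6 were detected. Ucp2, an uncoupling protein known from blood and immune cells, was highest at 1202 and 1287 coding-scaled TPM (1244 ± 60.6, n = 2), from 46061 and 17297 counts. Slc25a5, an ADP/ATP carrier, stood at 149 and 168 and Vdac2, a channel of the outer membrane, at 66.2 and 92.1. Slc25a4, the ADP/ATP carrier of heart and muscle, stood at 15.9 and 11.2, and Ucp1, the brown fat form, and Slc25a31 had 0 counts in both libraries.

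Of 12 regulators of mitochondrial genes, 5 were detected. Nrf1 stood at 61.9 and 56.1 coding-scaled TPM, Yy1 at 45.1 and 68.3 and Tfam, which packs mitochondrial DNA, at 49.5 and 18. Gabpa stood at 32.3 and 20.5. The coactivator Ppargc1a was lowest, with 2 and 0 counts, and Ppargc1b had 16 and 8.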
